A study of Mus musculus with 18 samples.

Results

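Ggta1, Chil1 and Nxpe5 are 3 of the 24485 genes measured in macrophages that cannot make interleukin 10 (IL-10). They were chosen by their fitted log2 fold changes with IL-10, which were among the largest rises, so their levels with IL-10 are given as a description and were not tested. Their responses to lipopolysaccharide (LPS) and to (+)-JQ1 were tested, but all of those comparisons except LPS + JQ1 against JQ1 use control libraries of the IL-10 comparisons and so are not independent of the choice. LPS + JQ1 against JQ1 shares no library with them, but its spread was estimated over all 18 libraries.

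The cells were bone marrow-derived macrophages (BMDMs) from 3 male Il10-/- mice, C57BL/6J background, 12 weeks old according to the methods of the study, grown for 6 days in medium conditioned by L929 cells. All 18 libraries, controls included, therefore lack functional Il10, and no wild-type library was analysed here. The 6 groups of 3 libraries were Unstimulated (no pretreatment, then saline buffer), JQ1 (500 nM), IL-10 (10 ng/mL), LPS (50 ng/mL after no pretreatment), LPS + JQ1 and LPS + IL-10. Pretreatment lasted 12 hours, LPS or buffer followed for 4 hours, and the cells were collected at 16 hours. The labels call cells without JQ1 or IL-10 untreated, whereas the methods name a vehicle before LPS. LPS is the bacterial outer membrane component sensed by TLR4, and (+)-JQ1 blocks the bromodomains through which BET proteins bind acetylated histones. Libraries held 6781952 to 28289498 expected counts, so that 3 reads, the floor used below, stood for 0.106 to 0.442 CPM (counts scaled to the library total). All 8 macrophage markers were above that floor in every group, and their summed abundance was 14317 to 29066 TPM (transcript counts corrected for length and scaled to the library). Lyz2 made up most of that sum, with group means from 10214 TPM (LPS) to 24665 TPM (JQ1). The 8 did not move together, and with JQ1 alone 3 were higher and 4 lower, where 21.9% and 23.7% of all genes were. The knocked-out gene still gave reads in every library (27.1 to 176.7 normalised counts), which is no check of the deletion because no library with the intact gene was analysed here.

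IL-10 binds a receptor of Il10ra and Il10rb chains, the kinases Jak1 and Tyk2 phosphorylate Stat3, and Stat3 switches on genes that restrain inflammatory macrophages. Ggta1 encodes the alpha-1,3-galactosyltransferase of the Golgi, which caps N-acetyllactosamine chains with the alpha-gal epitope that most mammals carry and humans have lost. Chil1 (also Chi3l1) encodes a secreted chitinase-like lectin, which binds sugar polymers without cutting them and is released by macrophages and neutrophils in inflammation. Nxpe5 belongs to the family with neurexophilin and PC-esterase domains, and its function is little known.

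The 3 genes lie on different chromosomes. In mm9, the genome build of the files, Ggta1 covers positions 35255699 to 35318751 of chromosome 2 on the minus strand, and Chil1 covers 136078753 to 136086758 of chromosome 1 on the plus strand under its older name Chi3l1 (GENCODE vM1). The RefSeq promoter of Nxpe5 matched mm9 once, at the 5' end of the plus-strand gene annotated as BC055004, 138667126 to 138694591 of chromosome 5. No other GENCODE gene overlapped these 3 intervals, so no annotated gene on the other strand shares reads with them. The promoters are shown because the 3 genes share the rise with IL-10 on which they were picked, although their patterns over the groups differ. Each line runs 5' to 3' from 250 bases before to 50 after the RefSeq start (RefSeq table of GRCm38.p6, all 3 genes matched by symbol), each sequence occurs once in mm9 without a mismatch, and capitals mark every motif match found. The mm9 intervals are chr2:35316920-35317219 on the minus strand for Ggta1, inside the GENCODE gene, chr1:136078483-136078782 on the plus strand for Chil1 and chr5:138666882-138667181 on the plus strand for Nxpe5.
Ggta1: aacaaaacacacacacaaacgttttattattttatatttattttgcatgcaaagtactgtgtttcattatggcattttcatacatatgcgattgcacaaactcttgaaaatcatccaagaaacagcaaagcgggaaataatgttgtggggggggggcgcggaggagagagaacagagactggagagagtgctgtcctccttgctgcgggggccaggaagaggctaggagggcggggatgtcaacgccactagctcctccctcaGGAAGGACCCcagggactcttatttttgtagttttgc
Chil1: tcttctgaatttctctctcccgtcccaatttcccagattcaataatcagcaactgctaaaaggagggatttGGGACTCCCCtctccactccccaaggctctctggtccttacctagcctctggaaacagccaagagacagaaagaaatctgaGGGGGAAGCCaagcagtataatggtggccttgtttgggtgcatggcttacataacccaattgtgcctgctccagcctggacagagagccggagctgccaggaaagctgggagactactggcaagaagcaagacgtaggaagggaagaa
Nxpe5: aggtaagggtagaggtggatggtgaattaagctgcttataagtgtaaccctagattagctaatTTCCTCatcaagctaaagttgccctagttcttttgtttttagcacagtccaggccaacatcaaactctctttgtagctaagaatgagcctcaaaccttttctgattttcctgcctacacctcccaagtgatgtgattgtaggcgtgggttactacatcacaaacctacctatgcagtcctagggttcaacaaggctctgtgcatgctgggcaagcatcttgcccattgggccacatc

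A set of 5 motifs was searched on both strands, and none was found in all 3 promoters. The STAT-type letters TTCNNNGAA were in none of the 3 and in 8.30% of the 32851 promoters of this length. The AP-1-type letters TGANTCA (7.81% of promoters) and the interferon response letters TTTC, any 2 bases and TTTC (3.44%) were also in none of them. The NF-kB-type letters GGG, any 5 bases and CC, loose enough to be in 50.8% of promoters, matched at 1 site in Ggta1 and at 2 sites in Chil1. The PU.1-type letters GAGGAA, in 28.3% of promoters, matched once in Nxpe5. No match overlapped a match to another motif. These counts describe letters in windows of 300 bases and carry no statement about binding.

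Each gene had its own order of groups. Ggta1 was highest with LPS + IL-10, high in resting cells with or without IL-10, and lowest with LPS or LPS + JQ1. Chil1 was low in resting cells, intermediate with LPS and far higher with LPS + IL-10. Nxpe5 was highest with IL-10 alone and lower in every group that had LPS or JQ1 without IL-10. JQ1, with or without LPS, left at most 3 reads of Chil1 and 12 of Nxpe5 in any library. All values below are expected counts divided by DESeq2 size factors (normalised counts), with replicates in the order 1, 2, 3 unless TPM is named.

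For Ggta1 the values were 867.1, 997.9 and 1049.1 in Unstimulated and 1304, 1286 and 1316 in IL-10 libraries. With LPS they were 91.9, 112.7 and 139.97, against 2056, 3020 and 3101 with LPS + IL-10. The 3 libraries with LPS + IL-10 lay above all others and the 3 with IL-10 above the 3 Unstimulated ones. With JQ1 the values were 359.8, 312.5 and 288.5, and with LPS + JQ1 121.5, 153.8 and 118.2. The LPS and LPS + JQ1 libraries overlapped, while every other pair of neighbours in the order of group means was apart.

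For Chil1 the values were 13.1, 8.46 and 6.70 in Unstimulated libraries and 58.5, 9.22 and 13.3 with IL-10 alone. The IL-10 and Unstimulated libraries overlapped, and IL-10 replicate 1, with 149 reads against 12 and 16 in the other 2 IL-10 libraries, carried the higher mean. With LPS they were 209.3, 254.4 and 195.2, and with LPS + IL-10 2529, 3920 and 3084. The lowest library with LPS + IL-10 thus lay well above the highest with LPS, and all 6 lay above the resting libraries. JQ1 libraries had 0, 0 and 1 read, and LPS + JQ1 libraries 3, 2 and 2, all at or under the floor of 3 reads. A count of 0 allows a share of up to that floor and covers counting error only.

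For Nxpe5 the values were 239.1, 96.4 and 96.5 in Unstimulated libraries, with replicate 1 above the other 2, and 1114, 922.1 and 1043 with IL-10. With LPS they were 24.0, 31.02 and 31.9, and with LPS + IL-10 230.1, 293.4 and 275.9. Each set with IL-10 lay apart from and above its set without, but the LPS + IL-10 and Unstimulated libraries overlapped through Unstimulated replicate 1. JQ1 libraries had 12, 7 and 8 reads (normalised 10.4, 6.90 and 7.33), and LPS + JQ1 libraries 2, 3 and 2, at or under the floor.

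**Figure D1:**
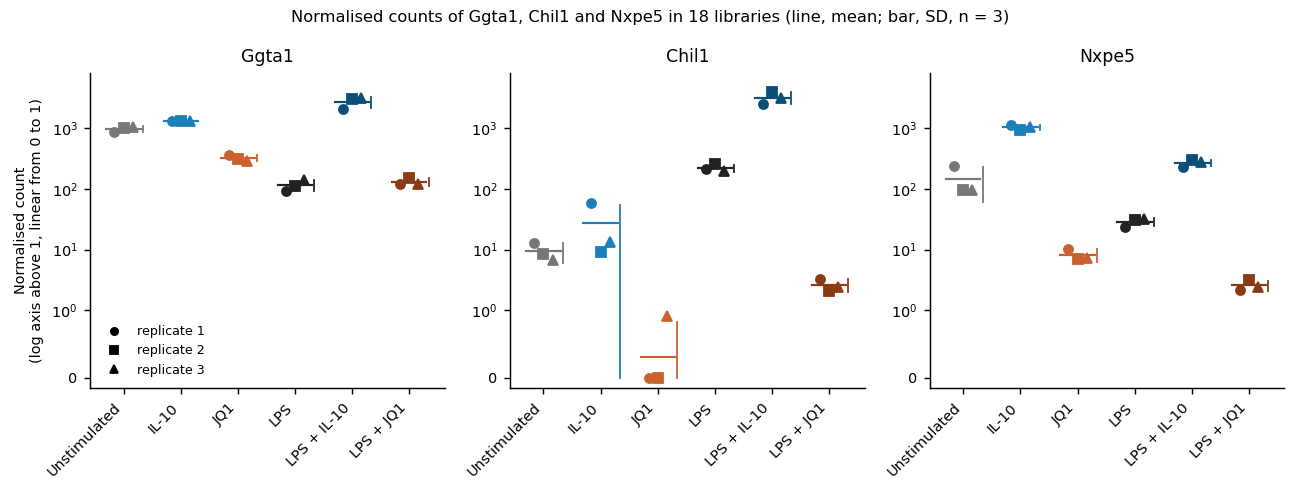
Normalised counts (vertical axis, logarithmic above 1 and linear from 0 to 1) of Ggta1, Chil1 and Nxpe5 in the 18 libraries, by group; symbols are replicates, the horizontal line is the group mean and the vertical bar 1 SD (n = 3), cut off at 0. Ggta1 and Chil1 are highest with LPS + IL-10 (means 2726 and 3178) and Nxpe5 with IL-10 alone (1027), and Chil1 and Nxpe5 sit near 0 in the libraries with JQ1.

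On the scale of TPM, which corrects for transcript length and lets genes be compared, Ggta1 was the most abundant of the 3 in resting cells, with a mean of 39.5 ± 4.13 TPM (SD, n = 3) against 9.35 for Nxpe5 and 0.863 for Chil1. With IL-10 alone the order was Nxpe5 (69.0 TPM), Ggta1 (54.95 TPM) and Chil1 (2.59 TPM). With LPS + IL-10 it was Chil1 (183.8 TPM), Ggta1 (70.5 TPM) and Nxpe5 (10.9 TPM). Chil1 then stood at places 935, 599 and 763 among the 24485 genes ordered by TPM in a library, against 4685 to 5354 with LPS alone. Ggta1 stood at places 1537 to 2143 with LPS + IL-10 against 7829 to 8518 with LPS alone. In bulk RNA a change in the number of cells that make a transcript and a change in the amount per cell cannot be told apart.

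IL-10 added before LPS gave the differences on which the genes were picked. Against LPS, LPS + IL-10 was higher by a fitted log2 fold change of 4.56 (SE 0.169) for Ggta1, 3.85 (SE 0.400) for Chil1 and 3.19 (SE 0.314) for Nxpe5. The 3 same-numbered pairs ran from 4.46 to 4.74 for Ggta1, 3.59 to 3.98 for Chil1 and 3.09 to 3.23 for Nxpe5. These pair values are differences in log2 of the normalised count plus a small constant. All 9 pairs pointed up, and no group pair overlapped. By fitted fold change they stood at places 2, 3 and 7 of 11448 genes. Of these, 855 passed the test upward, averaged 100 or more normalised counts over the libraries and were higher in every pair. Chil1 reached that average through LPS + IL-10, with a mean of 3178 against at most 219.6 in any other group. Within that list the 3 genes were numbers 1, 2 and 3, which describes the choice and is no test of it. The next were Sema4c, a semaphorin (3.14), Lcn2, a siderophore-binding lipocalin (3.11), Rnd1 (3.02), March1, a ubiquitin ligase acting on MHC class II (2.83), and Il21r, the IL-21 receptor (2.42). Nxpe5 and Sema4c were thus separated by less than the SE of either. In that comparison 17.2% of 11448 genes passed, 8.38% higher and 8.81% lower.

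IL-10 without LPS gave smaller differences for Ggta1 and Chil1. Against Unstimulated cells the fitted log2 fold change was 0.42 (SE 0.149) for Ggta1, and 2.82 (SE 0.268) for Nxpe5. For Chil1 it was 1.57 (SE 0.492), but 0.63 without replicate 1. Nxpe5 stood at place 8 of 12727 genes by fitted fold change, and it ranked 3 among the 210 that met the same criteria. Above it in that list were Socs3, the feedback inhibitor of cytokine receptors (3.30), and Ednrb, the endothelin B receptor (3.03). Below it came Cd38, an NAD-consuming ectoenzyme (1.58), Gja1, the gap junction protein connexin 43 (1.45), and Gcnt2, which branches poly-N-acetyllactosamine chains (1.40). In that comparison 2.81% of 12727 genes passed, 1.80% higher and 1.01% lower. Both IL-10 comparisons used the control libraries that serve the LPS and JQ1 tests below.

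LPS alone lowered Ggta1 and Nxpe5 and raised Chil1, and all 3 passed the test in a comparison in which 64.5% of 14965 genes did (31.6% higher and 32.9% lower). The comparison asks what LPS does without pretreatment, and each of its groups is also the control of an IL-10 comparison, so it is not independent of the choice of genes. Ggta1 fell by 3.07 on the log2 scale (SE 0.171, DESeq2 adjusted p 1.96e-71), an 8.42-fold lower level, with pairs from -3.23 to -2.90. Chil1 rose by 4.53 (SE 0.479, DESeq2 adjusted p 1.44e-20), 23.2-fold, with pairs from 3.95 to 4.83. Nxpe5 fell by 2.32 (SE 0.317, DESeq2 adjusted p 8.13e-13), and by 1.60 without replicate 1, in which the Unstimulated level was high. The LPS and Unstimulated libraries did not overlap for any of the 3. Replicates 1 and 3 were each on 1 sequencing lane in all groups, so pairs 1 and 3 are comparisons within a lane, and they had the same direction as pair 2, which crossed lanes. Total-count scaling shifted the median of 12243 genes from -0.07 to -0.996 in this comparison, and gave -4.00, 3.61 and -3.25 for Ggta1, Chil1 and Nxpe5.

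After IL-10 pretreatment LPS went with a higher Ggta1 and a lower Nxpe5, as a description in a comparison in which 67.0% of 14326 genes passed (33.2% higher and 33.8% lower). LPS + IL-10 against IL-10 was 1.07 (SE 0.147) for Ggta1, 6.82 (SE 0.415) for Chil1 and -1.95 (SE 0.265) for Nxpe5. For Ggta1 the 3 pairs were 0.66, 1.23 and 1.24 with IL-10 and -3.23, -3.14 and -2.90 without. The direction for Ggta1 was therefore opposite in every pair, whereas Chil1 was higher with LPS and Nxpe5 lower in all pairs under both conditions. The higher Ggta1 level rests on the scaling. In TPM, replicate 1 had 48.99 with LPS + IL-10 against 55.3 with IL-10, while replicates 2 and 3 had 77.8 against 52.3 and 84.8 against 57.3. For Chil1 the value was 8.30 without replicate 1, where the IL-10 level was high.

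**Figure D2:**
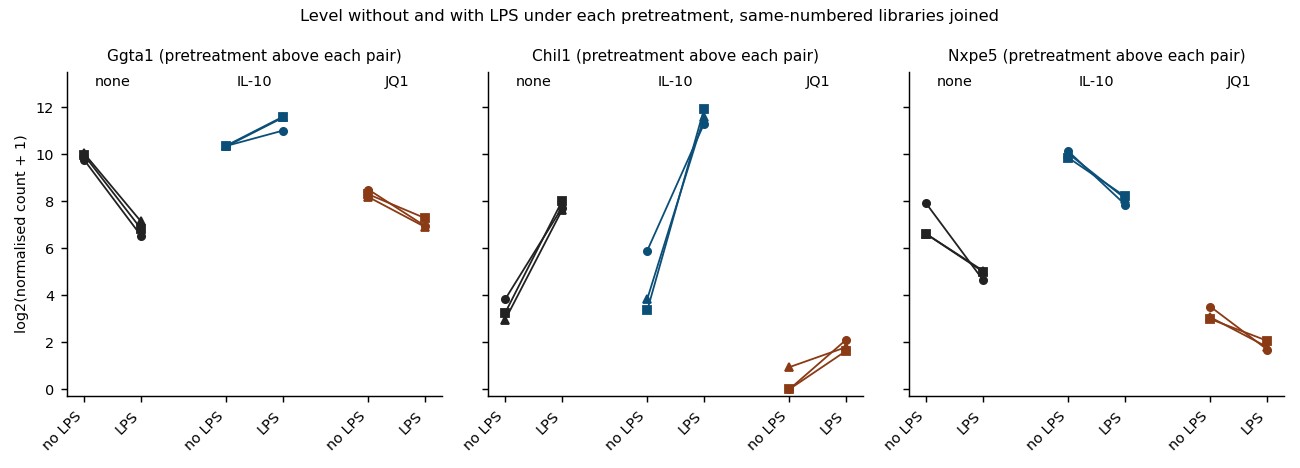
log2(normalised count + 1) of each gene without and with LPS (horizontal axis) after no pretreatment, IL-10 or JQ1; each line joins the libraries of 1 replicate number. Ggta1 lines run down after no pretreatment and JQ1 and up after IL-10, Chil1 lines run up in all 3 settings, and Nxpe5 lines run down in all 3. After JQ1 the Chil1 lines rest on at most 3 reads in any library, so their direction is not read as a result.

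JQ1 alone lowered all 3 genes, in a comparison that asks what BET inhibition does to resting cells and in which 45.7% of 13686 genes passed (21.9% higher and 23.7% lower). Ggta1 fell by 1.60 on the log2 scale (SE 0.154, DESeq2 adjusted p 1.12e-23), a 3.03-fold lower level, with pairs from -1.86 to -1.27. Nxpe5 fell by 4.14 (SE 0.386, DESeq2 adjusted p 2.43e-25), a 17.6-fold lower level, with pairs from -4.46 to -3.63. Chil1 had 1 read in 3 JQ1 libraries against 32 in 3 Unstimulated ones, a ratio of 30.9 after scaling (exact 95% interval of the counts 5.16 to 1258) with a DESeq2 adjusted p of 0.000509. The Chil1 call rests on few reads. Leaving out replicates moved its fitted log2 fold change between -6.02 and -3.92, the latter without replicate 1 and the former without replicate 3. Summed neutrophil markers were 0.74 to 4.08 TPM with JQ1 and 3.38 to 15.04 TPM in Unstimulated libraries, ranges that overlapped. Of the 4 such markers tested 1 was lower by DESeq2, where 23.7% of all genes were, and 2 were lower at an unadjusted p under 0.05. Their median log2 fold change was -2.36, against -0.0006 over all genes tested. Of the 9 listed, 5 were above the floor in Unstimulated and 2 in JQ1 libraries. Their part in the Chil1 result was not tested. None of the 3 genes had overlapping libraries in this comparison, which shares the Unstimulated libraries with IL-10 against Unstimulated.

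JQ1 before LPS lowered Chil1 and Nxpe5, whereas no change in Ggta1 was detected. This comparison asks how BET inhibition alters the LPS state, and 57.3% of 14326 genes passed in it (24.4% higher and 32.9% lower). Its LPS libraries are those of the IL-10 comparison. Chil1 had 7 reads in 3 LPS + JQ1 libraries against 553 in 3 LPS libraries, a ratio of 84.7 after scaling (exact 95% interval of the counts 40.8 to 211.6) with a DESeq2 adjusted p of 2.87e-20. Nxpe5 had 7 reads against 73, a ratio of 11.2 (interval 5.16 to 28.8) with a DESeq2 adjusted p of 1.09e-07. Ggta1 differed by 0.19 on the log2 scale (SE 0.185, 95% interval -0.17 to 0.55, DESeq2 adjusted p 0.400), and its libraries overlapped, with 2 pairs up and 1 down. Under total-count scaling the Ggta1 difference was 0.56 with an adjusted p of 0.00759, where the median of all genes was 0.28 instead of -0.10.

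The JQ1 effect on Ggta1 differed between resting and LPS-treated cells. The interaction, the effect of JQ1 with LPS minus that without, was 1.79 on the log2 scale for Ggta1 (SE 0.241, DESeq2 adjusted p 1.94e-12), with pairs of 1.67, 2.12 and 1.62, where 41.5% of 12727 genes passed (17.7% higher and 23.8% lower). Ggta1 was already 8.42-fold lower with LPS, and the LPS + JQ1 libraries overlapped those with LPS. This test uses the Unstimulated and LPS libraries of the IL-10 comparisons and so is not independent of the choice of Ggta1. For Chil1 the interaction was -1.54 (SE 1.44, DESeq2 adjusted p 0.416) and for Nxpe5 0.67 (SE 0.736, DESeq2 adjusted p 0.501). Their 95% intervals were -4.36 to 1.28 and -0.78 to 2.11, both rest on groups at or under the floor, and no difference was detected by this test, whereas limma on TPM called both.

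LPS + JQ1 against JQ1 is the comparison that shares no library with either IL-10 comparison. The spread used in its test was still estimated over all 18 libraries. Of its 13686 genes 58.6% passed, 27.6% higher and 31.0% lower. Ggta1 fell by 1.29 on the log2 scale (SE 0.170, DESeq2 adjusted p 2.27e-13), 2.44-fold, with all 3 pairs down and no overlap. Nxpe5 had 7 reads with LPS + JQ1 against 27 with JQ1, a ratio of 3.15 (exact 95% interval of the counts 1.34 to 8.58) with a DESeq2 adjusted p of 0.0235. That p became 0.146 without replicate 1, 0.0577 without replicate 3, 0.124 with only the groups compared and 0.133 by edgeR. Chil1 was at or under the floor in both groups, and no fold is given.

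**Figure D3:**
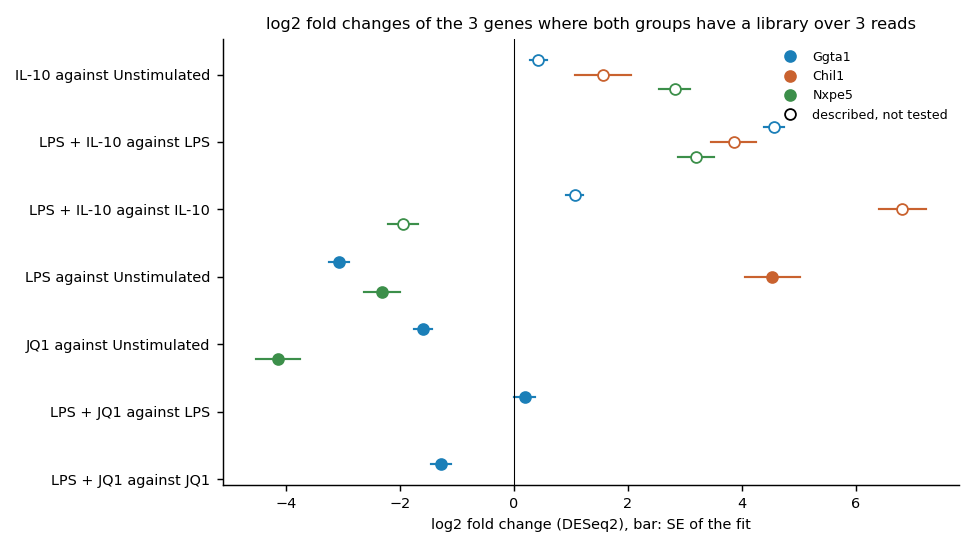
Fitted log2 fold changes (horizontal axis; bars are 1 SE of the DESeq2 fit) of the 3 genes in 7 comparisons; filled points were tested and open points are a description, and comparisons with a group at or under 3 reads in every library are left out. Ggta1 is at -3.07 with LPS and at 4.56 for LPS + IL-10 against LPS, and Chil1 is the gene with a positive value for LPS alone (4.53).

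Ggta1 is the one gene of the 3 with more than 1 RefSeq transcript (4), so the mean transcript length that RSEM weights by isoform abundance could show a shift between isoforms. That length was 3551 to 3578 bases in the 18 libraries, a range of 0.751%. In 5 comparisons the groups differed by at most 10.5 bases, with two-sided exact permutation p-values of 0.3 to 0.6 (0.6 in all 5 after Benjamini-Hochberg adjustment), where 3 against 3 libraries cannot give less than 0.1. All expected counts of the 3 genes were whole numbers, as they are when no read is divided among genes.

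The genes next to each of the 3 had almost no reads or no detected difference with IL-10. Beside Ggta1, 4930402F06Rik had at most 2 reads in any library and Gm13446 had none. Beside Chil1, the chitinase gene Chit1 had no read in any library and Mybph, a muscle myosin-binding protein, had at most 2. Beside Nxpe5, Mblac1 was expressed at 91.0 normalised counts in Unstimulated cells and differed with IL-10 by 0.19 (SE 0.203, DESeq2 adjusted p 0.999), and by -0.19 with LPS + IL-10 against LPS (SE 0.540, adjusted p 0.888). Lamtor4, a subunit of the lysosomal Ragulator complex, differed by 0.14 (SE 0.101, adjusted p 0.851) and by -0.04 (SE 0.118, adjusted p 0.896). With LPS alone Mblac1 fell by 3.72 (SE 0.400, DESeq2 adjusted p 5.83e-20) and Lamtor4 fell by 0.70 (SE 0.111, DESeq2 adjusted p 9.44e-10).

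The genes with the most similar pattern were taken by Pearson correlation of variance-stabilised counts over the 18 libraries, among the 8375 genes averaging 100 or more normalised counts. These libraries share groups, and the r values are a description. For Ggta1 they were Nek6, a mitotic kinase (0.971), Mif4gd (0.945), Vav1, a guanine exchange factor of blood cells (0.945), Acvr1b, an activin receptor (0.938), and Ptpn1, a tyrosine phosphatase (0.917). Nek6 had means of 570.5 normalised counts in Unstimulated, 234.5 in LPS and 1143 in LPS + IL-10 cells, a smaller span than that of Ggta1. For Chil1 they were Sema4c (0.987), Dusp1, a MAP kinase phosphatase (0.979), Lcn2 (0.978), Ppp4r1, a regulatory subunit of protein phosphatase 4 (0.970), and Lrrc25 (0.969). Sema4c had 185.6, 346.8 and 3075 normalised counts in Unstimulated, LPS and LPS + IL-10 cells, and 117.9 and 150.2 with JQ1 and LPS + JQ1. For Nxpe5 they were Cd5l, a secreted macrophage protein (0.926), Timm10b, a mitochondrial import factor (0.911), Sfxn5 (0.909), Hfe, a regulator of iron uptake (0.906), and Pros1, the anticoagulant protein S (0.900). Cd5l had 657.1 normalised counts in Unstimulated, 1395 in IL-10 and 405.8 in JQ1 cells. By rank (Spearman) instead, 2 of the 5 remained for Ggta1, 0 for Chil1 and 2 for Nxpe5, so these names depend on the measure. Between themselves the 3 genes were less alike, with r of 0.563 for Ggta1 and Chil1, 0.765 for Ggta1 and Nxpe5 and 0.266 for Chil1 and Nxpe5 (by rank 0.380, 0.781 and 0.625).

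**Figure D4:**
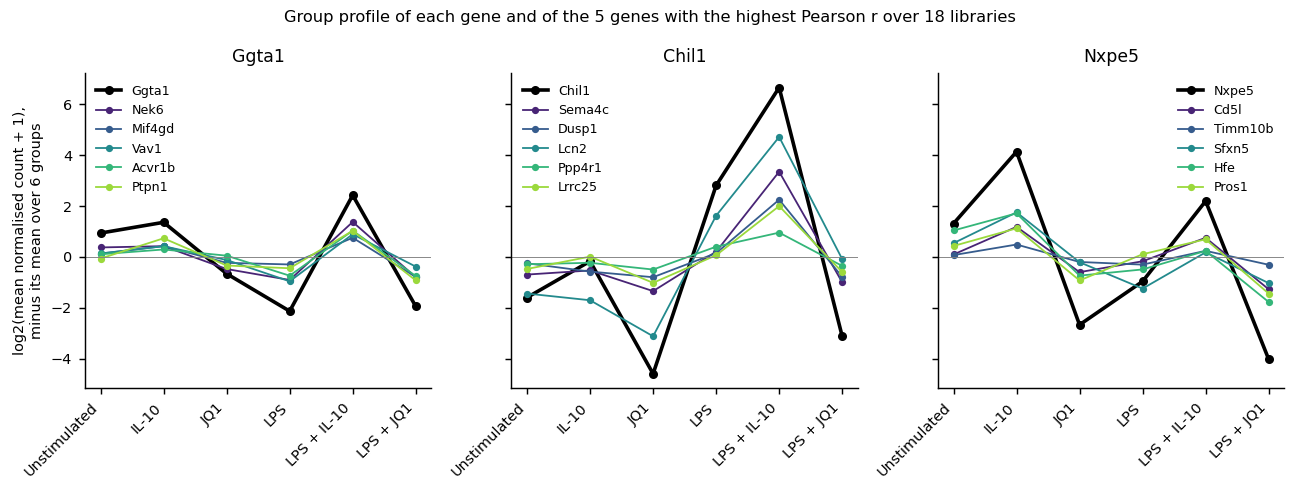
log2(mean normalised count + 1) of each gene (black) and of the 5 genes most like it (colours) in the 6 groups, minus the mean over groups. Nek6 spans less (234.5 to 1143) than Ggta1 (114.9 to 2726), and some coloured lines run against the black one between neighbouring groups, as Lcn2 does beside Chil1 from Unstimulated (16.8) to IL-10 (13.8).

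Of the 18 genes listed for the IL-10 receptor, Stat3 and its targets, 8 were higher, none lower and 10 did not pass with IL-10 alone (DESeq2, median log2 fold change 0.32 against -0.01 over all genes tested, of which 1.80% were higher and 1.01% lower). They included Socs3 (3.30), Stat3 (0.75), Sbno2 (0.77) and Etv3 (0.48), all transcriptional or feedback regulators. With LPS + IL-10 against LPS 11 of 17 were higher, 2 lower and 4 did not pass (median 0.66 against -0.02 over all genes tested, of which 8.38% were higher and 8.81% lower). Among them Il1rn, the IL-1 receptor antagonist, was higher by 1.26, Hmox1, a haem oxygenase, by 0.66 and Jak1 by 0.31, while the receptor chain Il10ra fell by 0.58. LPS itself raised 13 of the 18 and lowered 2 (median 0.99 against -0.07 over all genes tested, of which 31.6% were higher and 32.9% lower), with Socs3 at 8.42, Stat3 at 2.43 and Jak1 at 1.23. LPS + JQ1 lowered 9 and raised 2 against LPS (median -0.60 against -0.11 over all genes tested, of which 24.4% were higher and 32.9% lower), with Il1rn at -5.93, Il10ra at -1.93, Stat3 at -0.996 and Hmox1 at 0.60. JQ1 alone raised 5 and lowered 8, where 21.9% of all genes tested were higher and 23.7% lower, with Il1rn at -4.48, Hmox1 at 1.15, Jak1 at 0.30 and Stat3 at 0.24. Both receptor chains, named for their role, were raised by LPS, Il10ra by 2.09 and Il10rb by 0.27, and with IL-10 alone they were at 0.05 and 0.03 (DESeq2 adjusted p near 1 for each).

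**Figure D5:**
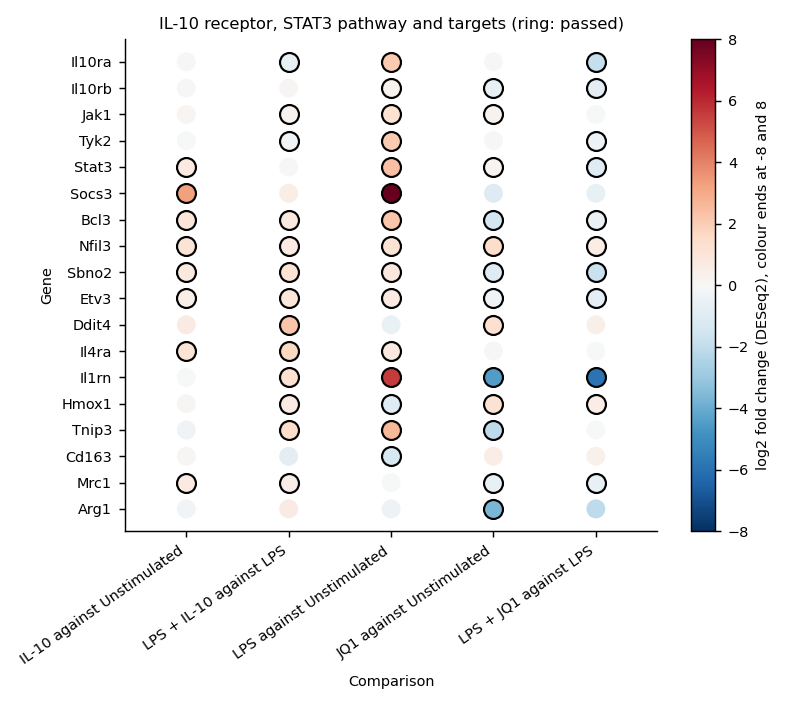
log2 fold changes (colour, ends at -8 and 8) of the 18 genes of the IL-10 receptor, Stat3 and target list in 5 comparisons; a ring marks an adjusted p under 0.05 (DESeq2), and genes without an adjusted p have no ring. Ringed points with IL-10 alone number 8, all red, and Socs3 reaches 8.42 with LPS.

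The enzymes listed around Ggta1 are its own family and members of families that build or modify its acceptor. Of the 4 other members of its glycosyltransferase family, only Gbgt1, the Forssman synthase homologue, and A3galt2 were above the floor. Gbgt1 differed by 0.30 with IL-10 (SE 0.395, DESeq2 adjusted p near 1) and by 0.78 with LPS + IL-10 against LPS (SE 0.372, DESeq2 adjusted p 0.151). Unlike Ggta1 it rose with LPS (1.42, SE 0.392, DESeq2 adjusted p 0.000575), and it fell by 3.00 with JQ1. Of the 12 enzymes listed for synthesis of N-acetyllactosamine, the acceptor of Ggta1, none passed with IL-10 alone by DESeq2 or edgeR. The share of all genes passing at the adjusted threshold was 2.81%. An unadjusted p under 0.05, a looser threshold to which that share does not apply, was seen for 1 of the 12. With LPS + IL-10 against LPS 2 of 9 tested were higher (B4galt5 0.54 and B3gnt7 0.74) and 2 lower (B4galt1 -0.28 and B4galt3 -0.79), where 17.2% of all genes passed. LPS raised 3 and lowered 4 of the 12, close to the 31.6% and 32.9% of all genes, with B3gnt2 at 3.12, B4galt5 at 2.31, B4galt1 at -1.03 and B4galt6 at -0.87.

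Sialyl- and fucosyltransferases add sialic acid or fucose to glycans, some of them to the chain ends that Ggta1 uses, others such as Fut8 and St3gal5 to the core of N-glycans or to glycolipids. Of the 14 listed 10 were tested, and 5 rose and 3 fell with LPS, where 31.6% of all genes were higher and 32.9% lower, with St3gal3 at 3.34, St3gal1 at 3.24, St3gal5 at 2.08 and St6gal1 at -4.10. JQ1 lowered 7 of the 10 and raised none, where 23.7% of all genes tested were lower and 21.9% higher. By edgeR and at an unadjusted p under 0.05 the counts were also 7 and 0. The median was -1.03 against a median near 0 over all genes tested. JQ1 before LPS lowered 8 and raised none, where 32.9% of all genes tested were lower and 24.4% higher. By edgeR the counts were 8 and 0, and unadjusted 9 and 0, with a median of -1.29 against -0.11 over all genes tested. Examples with JQ1 alone were St3gal5 (-1.10), St3gal4 (-0.96), St3gal1 (-0.57) and St6gal1 (-0.35). With IL-10 alone 1 of the 10, St3gal5 (-0.36), was lower by DESeq2, where 1.01% of all genes were, and none passed by edgeR. With LPS + IL-10 against LPS 9 were tested, where 8.38% of all genes were higher and 8.81% lower. Among them St3gal4 was higher (0.67), and St3gal1 (-0.37), St3gal5 (-0.75) and Fut8 (-0.57) were lower.

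Among the 8 other chitinases and chitinase-like genes, only Chil3, Chid1 and Ctbs were above the floor, and none of the 3 passed with IL-10 in either comparison by DESeq2 or edgeR. The shares of all genes passing at the adjusted threshold were 2.81% and 17.2%, so 0 of 3 says little about the family. At an unadjusted p under 0.05, to which those shares do not apply, there was 1 with IL-10 alone and 0 with LPS + IL-10 against LPS. Chil3, which encodes the lectin Ym1, rose with LPS by 0.96 (SE 0.348, DESeq2 adjusted p 0.0101) and fell by 1.62 with LPS + JQ1 against LPS (SE 0.385, DESeq2 adjusted p 7.45e-05). Ctbs, the lysosomal chitobiase, and Chid1 were lower with LPS (-0.34 and -0.56). The 3 did not move together with JQ1. JQ1 alone raised 2 and lowered 1 (median 0.70), where 21.9% of all genes were higher and 23.7% lower. In LPS + JQ1 against LPS 1 was higher and 1 lower (median 0.22), where 24.4% and 32.9% of all genes were. Of the 5 genes for proteins reported to bind CHI3L1, 4 were tested. Cd44, the hyaluronan receptor, rose by 2.57 with LPS, Tmem219 by 1.47 and Ptgdr2, a prostaglandin D2 receptor, by 2.94. Lgals3, encoding galectin 3, was lower with IL-10 (-0.31), and Lgals3 (-0.42) and Cd44 (-0.21) were lower with LPS + IL-10 against LPS. By edgeR 0 of the partners were lower with IL-10 and 1 with LPS + IL-10 against LPS. By DESeq2 1.01% and 8.81% of all genes were lower in these comparisons. Il13ra2 had almost no reads, with a mean of 0.0684 normalised counts.

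In the family of Nxpe5, Nxpe3 and Nxpe4 averaged 78.04 and 9.88 normalised counts over all libraries and the other 5 relatives at most 1.33. Nxpe3 rose with LPS by 5.34 (SE 0.424, DESeq2 adjusted p 1.29e-35), opposite to Nxpe5, and fell by 2.94 with LPS + JQ1 against LPS. Nxpe4 was lower with LPS (-2.47) and with JQ1 (-2.76). With IL-10 neither passed (Nxpe3 -0.26 and Nxpe4 -0.84), and with LPS + IL-10 against LPS they were at -0.61 and -0.15 with adjusted p of 0.138 and 0.933 (DESeq2). In each of these comparisons 2 relatives were tested, where 2.81% and 17.2% of all genes passed at the adjusted threshold. By edgeR 0 were called, and so few relatives say little about the family. At an unadjusted p under 0.05, to which those shares do not apply, each comparison had 1 of the relatives.

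Chil1 and Lcn2 are also made by neutrophils, so the markers of other cells were set beside the results. The 9 neutrophil markers summed to 5.00 to 9.66 TPM with LPS + IL-10 and 3.59 to 5.97 with LPS, ranges that overlapped, and to 0.74 to 15.04 TPM over all libraries. Ly6g had no read in any library, and 3 of the 9 were above the floor with LPS + IL-10. Dendritic cell markers summed to 0.30 to 3.10 TPM, lymphocyte markers to 0.07 to 1.09 and fibroblast markers to 1.96 to 10.3. Of the 9 neutrophil markers 2 were tested with LPS + IL-10 against LPS, where 17.2% of all genes passed. By DESeq2, by edgeR or at an unadjusted p under 0.05, 0 passed, and 0 of 2 says little about the list. With LPS + IL-10 against IL-10, 1 of 5 was higher by DESeq2, where 33.2% of all genes were. For that comparison edgeR called 2 higher and 1 lower. Chil1 averaged 183.8 TPM in the LPS + IL-10 libraries, and a part of neutrophils in that level was not tested.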

How the data were processed

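RNA-seq libraries of ribosome-depleted, stranded RNA were aligned by the authors to mm9 with STAR and quantified with RSEM 1.2.31 under default settings (submitters' processing notes and methods). The deposited expected counts are RSEM estimates in which a read that fits several genes is shared, and 5.40% to 6.63% of genes per library were not whole. They were rounded. By default RSEM does not use strand. TPM, as deposited by the authors, corrects each gene for transcript length. The deposited lengths are RSEM's transcript and effective lengths weighted by isoform. The deposited FPKM values were not used here. The libraries carried no molecular identifiers, so intervals and floors cover counting error only.

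The DESeq2 1.42.0 Wald test (R 4.3.3) was run on all 24485 genes and 18 libraries with group as the term, after the study's methods. Adjusted p-values are Benjamini-Hochberg over all genes tested, with a threshold of 0.05. Where every library of a group had 3 reads or fewer, pooled reads are given as a ratio with an exact (Clopper-Pearson) 95% interval. Alternatives used edgeR 4.0.16, limma 3.58.1 on log2(TPM + 1) or log2(TPM + 0.1), other scalings, an effective-length offset, a minimum of 10 counts in 3 libraries, only the groups compared, lane, the replicate number as a block, and leaving out each replicate. Fits were tested on simulated data. Replicate libraries of a group differed beyond sampling noise (chi-square per degree of freedom 3.98 to 28.3), so none was merged.

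The labels describe the groups as matched cultures of 3 mice, so replicate numbers pair libraries. The deviations from group means of libraries sharing a number correlated at -0.09 to 0.58 on average. The blocked fit changed 1 call, for Chil1, given below.

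Genes named are the 3 genes, up to 4 genes a list with the largest mean count among those passing, the 5 genes most like each by Pearson correlation, the 5 ranking next with IL-10, the nearest listed neighbours and Il10. The receptor chains, list members that did not pass and those of lists with few expressed members are named for their role, after their values were seen. Genes, lists and tests were chosen with earlier results of these data known, so no pattern here is independent support. Protein sequences were not used here.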

Additional observations from a re-analysis of the deposited data

Results flagged for a closer look

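The JQ1 effect on Ggta1 was -1.60 on the log2 scale in resting cells and 0.19 during LPS stimulation, and the difference between them, 1.79 (SE 0.241, DESeq2 adjusted p 1.94e-12), passed the test of the difference itself. The test uses the LPS and Unstimulated libraries on which Ggta1 was picked, so it is not independent of that choice. It was positive in 3 of 3 pairs and passed under all 14 alternatives run, from 1.61 without replicate 2 to 2.34 under total-count scaling.

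The LPS effect on Ggta1 was opposite in sign with and without IL-10. LPS went with 1.07 after IL-10 (pairs 0.66, 1.23 and 1.24) and with -3.07 without pretreatment (pairs -3.23, -3.14 and -2.90). The difference was not tested, because the gene was picked on these groups. With IL-10 the value was 0.24 under total-count scaling and 0.32 on log2(TPM + 1), and in TPM replicate 1 was lower with LPS + IL-10 than with IL-10.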

How the results depend on the processing

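No result reversed. For the tested values of the 3 genes, 187 alternatives left the call as it was, 18 lost it and 5 gained one. Of the described IL-10 values 117 moved by less than the SD between the 3 pairs of that gene and 9 by more, a tolerance that is wide for Chil1 (1.57 and 0.63 without replicate 1 with IL-10 alone) and narrow for Nxpe5. The cause was not tested unless the construction shows it. For Chil1 in LPS + JQ1 against JQ1, where both groups are at or under 3 reads, the adjusted p was 0.0471, and 0.0581 without independent filtering, 0.0969 under total-count scaling, 0.0555 with TMM factors, 0.0648 with the replicate block, 0.0582 with lane, 0.148 with only the groups compared, 0.302 by edgeR, 0.719 by limma on log2(TPM + 1), 0.0571 on log2(TPM + 0.1) and 0.0504 to 0.253 without 1 replicate. The replicate block changed no other call of the 3 genes. The fitted Nxpe5 difference in that comparison lost its call with only the groups compared (-1.59), by edgeR (-1.56), by limma on log2(TPM + 1) (-0.38) and without replicate 1 or 3 (-1.93 to -1.32 over the 3 replicates left out). Chil1 with JQ1 alone lost it by limma on log2(TPM + 1) (-0.85), and Ggta1 in LPS + JQ1 against LPS gained it under total-count scaling (0.56). The interaction gained a call by limma on log2(TPM + 1) and log2(TPM + 0.1), at -2.58 and -2.49 for Chil1 and 1.81 and 1.52 for Nxpe5.

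Leaving out 1 replicate, which leaves fewer samples, gave 4050 to 4778 genes called with JQ1 (6248 with all), 3471 to 3929 for the interaction (5279), 130 to 196 with IL-10 (358) and 874 to 1250 with LPS + IL-10 against LPS (1968). With only the groups compared that last count was 1089, and limma on log2(TPM + 1) and log2(TPM + 0.1) called 211 and 123 genes with IL-10. LPS + IL-10 against LPS was 4.24 for Ggta1 and 2.49 for Nxpe5 on log2(TPM + 1), and 3.29 for Nxpe5 under total-count scaling. Under total-count scaling, log2(TPM + 1) and log2(TPM + 0.1), LPS + IL-10 against IL-10 was 0.24, 0.32 and 0.32 for Ggta1 and -2.77, -2.56 and -2.66 for Nxpe5. Limits are 3 libraries a group from 3 mice, few reads for Chil1 and Nxpe5 with JQ1, and scalings that shift the median of all genes in the LPS comparisons.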
